A study of Xenopus tropicalis with 2 samples.

Results

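The 441 regions described here are strongly covered peaks that lie in the interior of chromosomes 1 to 8 of the western clawed frog Xenopus tropicalis and stand outside dense clusters of peaks. A peak was a member when its start lay more than 5 Mb inside the outermost peak starts of its chromosome and it held 200 or more reads summed over both libraries. On chromosome 7 the start also had to lie above 12 Mb. At least 1 other peak had to start within 30 kb, and fewer than 5 others within 10 kb. The table held 124349 peaks, of which 70984 were interior peaks of these chromosomes and 704 of those reached 200 reads. Of the 704, the 441 members met the spacing limits, 262 lay in dense clusters and 1 had no other start within 30 kb. The members were thus chosen by read number and spacing in the same 2 libraries, and both measures are given below as description.

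The series profiled genome occupancy in tail tissue of wild-type tadpoles collected at 0 hours after amputation, which was done at Nieuwkoop-Faber stage 41. In 1 library the cells had gone through fluorescence-activated cell sorting (FACS, here the sorted library), and in the other they had not (the unsorted library). The labels describe tissue dissociated with the enzyme blend Liberase and name no transgene, no gated population, no number of pooled animals and no assay within the class of occupancy profiling. Each group was 1 library, so the variation among animals and among preparations is unknown and no test between the groups was possible.

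In profiles of this kind, reads from genomic DNA pile up where a preparation favours a stretch of the genome, and a peak caller marks those places. In vertebrates, promoters and enhancers are among the elements that give such places, and enhancers may stand in groups around a gene or alone between genes. A tadpole tail holds muscle, notochord, spinal cord, skin and other cells, so a profile of whole dissociated tail is an average over many cell types. The files pair no peak with a gene, and no genome build is named for them, so the peaks are named by the positions in the deposited table and without sequence. No peak could be checked against markers of a cell type.

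The sorted library held 3111092 reads in peaks and the unsorted library 3176954, with a median of 16 and 15 reads per peak. The members took 106897 of the sorted reads, or 3.44% (95% Clopper-Pearson interval 3.42 to 3.46), and 126589 of the unsorted reads, or 3.98% (3.96 to 4.01). All intervals cover counting error only: several reads may stem from 1 molecule, because the reads carry no molecular identifiers as far as the labels say.

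Most members stood only a little above the limit of 200 reads, and 2 of them stood far above all others. The members had between 76 and 11336 sorted reads, with a median of 140, and between 70 and 17632 unsorted reads, with a median of 148. Summed over both libraries the median was 281 reads, with quartiles of 225 and 419. The class from 200 to under 400 reads held 73.2% of the members. Just inside the limit, 28 members had 200 to 204 reads and a median log2 ratio of -0.027, where the log2 ratio sets the share of reads in the sorted library over that in the unsorted library. Just outside it, 20 peaks with the same spacing had 195 to 199 reads and a median log2 ratio of 0.059.

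The most covered member, on chromosome 6 (69212583-69212982), held 11336 sorted and 17632 unsorted reads. Its log2 ratio was -0.61 (95% interval -0.64 to -0.57). It had a single neighbour within 30 kb, which started 14808 bp away and held 14 sorted and 20 unsorted reads, so the member took 99.9% of the reads in its surroundings. The next, on chromosome 2 (155184502-155184901), held 10701 sorted and 15970 unsorted reads, with a log2 ratio of -0.55 (-0.58 to -0.51). Its nearest neighbour started 11937 bp away, and the 9 peaks within 30 kb together held 173 sorted and 141 unsorted reads. Both peaks thus rose from surroundings of ordinary coverage, and both had smaller shares of the sorted library. The next member after them held 3424 reads summed over both libraries.

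The remaining 8 of the 10 most covered members held between 2245 and 3424 summed reads and had log2 ratios nearer to 0 by library totals. After a loess correction for the trend of the ratio with coverage the order turned: the 2 most covered members were at -0.12 and -0.070, and these 8 lay between 0.13 and 0.58. The values that follow are by library totals. A set of 3 formed a row on chromosome 1. The peak at 47013404-47013803 held 1801 sorted and 1623 unsorted reads (log2 ratio 0.18, 0.08 to 0.28). The peak at 47016411-47016810 held 1538 sorted and 1298 unsorted reads (0.27, 0.17 to 0.38). The peak at 47017085-47017484 held 1337 sorted and 1187 unsorted reads (0.20, 0.09 to 0.32). All 3 intervals lay above 0. A pair 6230 bp apart on chromosome 8, at 23529077-23529476 and 23535307-23535706, held 1114 sorted and 1275 unsorted reads in the first and 1109 sorted and 1136 unsorted reads in the second. The log2 ratio was -0.16 (-0.28 to -0.05) for the first and -0.0045 (-0.13 to 0.12) for the second. The peak on chromosome 4 at 7905840-7906239 held 1270 sorted and 1391 unsorted reads (-0.10, -0.21 to 0.01). Those on chromosome 3 at 131864860-131865259 and on chromosome 2 at 102110690-102111089 had log2 ratios of 0.053 and -0.061, with intervals that held 0.

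**Figure D1:**
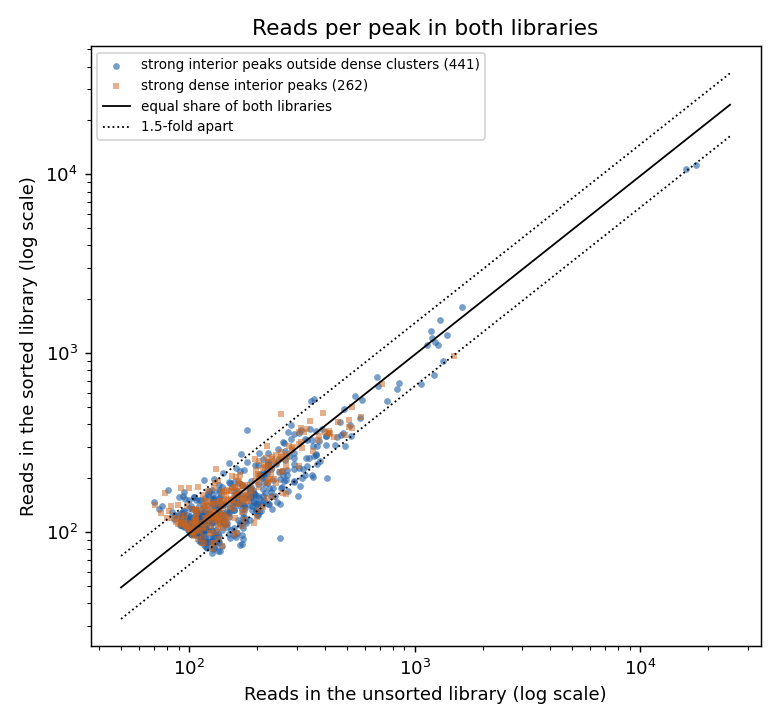
Reads of each peak in the sorted library (vertical, log scale) against the unsorted library (horizontal, log scale), for the 441 members (circles) and the 262 strong interior peaks in dense clusters (squares). The solid line marks equal shares of both libraries and the dotted lines 1.5-fold differences, and the 2 most covered members stand alone at the upper right, below the solid line.

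Distances from a member to its nearest peak spanned a wide range. The nearest other start lay between 363 and 29568 bp away, with a median of 4352 bp and quartiles of 1450 and 8519 bp. Of the members, 59 had their nearest start at 400 to under 1000 bp, 88 at 1000 to under 2000 bp, 86 at 2000 to under 5000 bp, 125 at 5000 to under 10000 bp and 82 at 10000 bp or more. Every member was 400 bp wide, so the 1 remaining member, at 363 bp, overlapped its neighbour. Interior peaks with fewer than 200 reads that met the same spacing limits had a median of 5276 bp, and strong peaks in dense clusters had 1051 bp, a gap that their definition favours. Only 13.6% of the members had a start closer than 1000 bp, against 19.9% of those weaker peaks and 47.7% of the strong dense peaks. The rule limits these distances, and no test was made of them.

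Members had between 1 and 21 other starts within 30 kb, with a median of 6, and 18 members had only 1. The most widely spaced member lay on chromosome 4 at 119538292-119538691, 29568 bp from its nearest and only neighbour within the window, and held 118 sorted and 120 unsorted reads (log2 ratio 0.0061, -0.37 to 0.38). Next came the peak on chromosome 6 at 46045183-46045582, at 28225 bp, with 159 sorted and 212 unsorted reads (-0.38, -0.69 to -0.08). The third, on chromosome 3 at 131892054-131892453, lay 26027 bp from its nearest start, with 104 sorted and 120 unsorted reads (-0.18, -0.57 to 0.21). Its other neighbour was the strong peak at 131864860 described above.

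At the narrow end, the member on chromosome 4 at 6318700-6319099 overlapped a neighbour of 81 reads and held 89 sorted and 113 unsorted reads (log2 ratio -0.31, -0.73 to 0.10). How reads in the overlap were counted was not tested. The member on chromosome 5 at 10377830-10378229 had its nearest start 417 bp away and held 115 sorted and 177 unsorted reads (-0.59, -0.94 to -0.25). That on chromosome 7 at 107247074-107247473 had one at 456 bp and held 356 sorted and 482 unsorted reads (-0.41, -0.61 to -0.21). The fullest surroundings were those of a member on chromosome 2 at 98993800-98994199, with 21 other starts within 30 kb, 142 sorted and 130 unsorted reads and a log2 ratio of 0.16 (-0.20 to 0.51). A member on chromosome 5 at 70007258-70007657 had 20 other starts, of which 12 belonged to strong peaks, and held 93 sorted and 152 unsorted reads (-0.68, -1.07 to -0.30). Wide and narrow spacing thus both occurred with ratios below 0 and near 0.

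**Figure D2:**
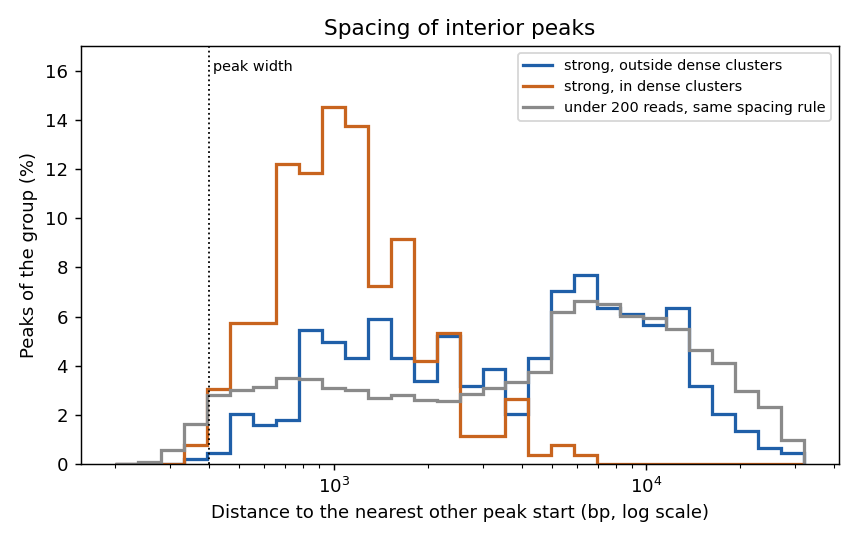
Share of peaks in each group (vertical, percent) by distance to the nearest other peak start (horizontal, bp, log scale), for the 441 members, the 262 strong interior peaks in dense clusters and the 65416 interior peaks with under 200 reads and the same spacing limits. The members and the weaker peaks are most frequent at about 5000 to 10000 bp, and the members show a smaller rise near 1000 bp, while most strong dense peaks lie near 1000 bp.

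Most members had no other strong peak near them, although strong peaks were more frequent around members than among interior peaks as a whole. In 273 members (61.9%) no other peak with 200 or more reads started within 30 kb. Another 84 had 1 such peak, 45 had 2 to 4 and 39 had 5 or more. Of the 2257 other peaks within 30 kb of a member, 266 held 200 or more reads, members included. Of all 70984 interior peaks, 704 did. Of the members, 333 (75.5%, 95% Clopper-Pearson interval 71.2 to 79.5) held more reads than every other peak within 30 kb, which their choice by reads favours. The median member held 4.7 times the reads of its nearest neighbour, with quartiles of 1.69 and 9 times. It also held 45.7% of all reads in peaks within 30 kb of it, its own included. In the 273 members without a strong neighbour that median share was 58.9%, and the nearest start lay at a median of 6318 bp. The 39 members with 5 or more strong neighbours held a median of 8.13% of the reads around them, and their nearest start lay at a median of 1450 bp.

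Coverage of the neighbours declined with distance from the nearest member. Within 30 kb of a member there were 2257 other peaks, each counted once, with a median of 44 reads. Those within 1 kb had a median of 182 reads, those at 1 to 2 kb 151 reads, and those at 2 to 5 kb 96 reads. From 5 to 10 kb the median was 43 reads, and from 10 to 30 kb it stayed between 38 and 40 reads. Of the 64 neighbours within 1 kb, 46.9% were strong peaks themselves, against 6.93% of those at 25 to 30 kb, and members add to both shares. Among neighbours with under 200 reads the medians were 104.5 within 1 kb, 99 at 1 to 2 kb, 68 at 2 to 5 kb and 38 at 5 to 10 kb. Neighbours at close range thus held more reads than distant ones, although most members had no strong neighbour at all.

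**Figure D3:**
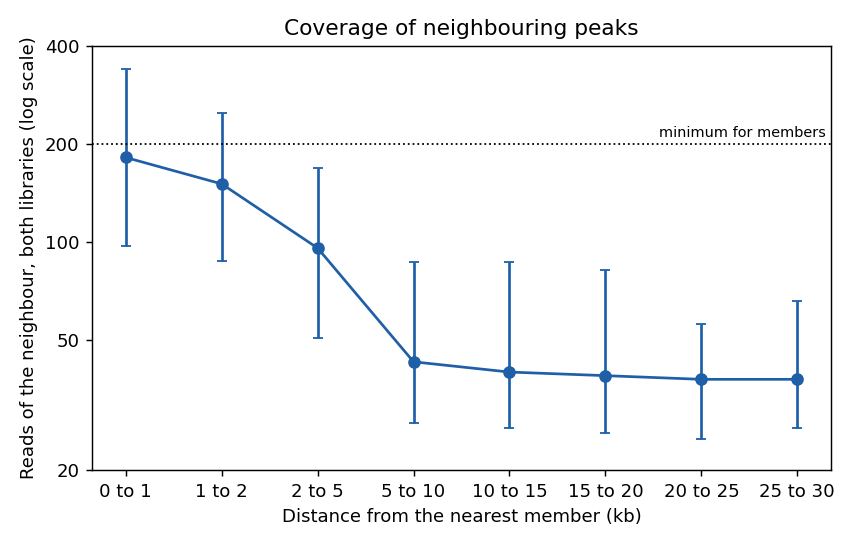
Reads per neighbouring peak, summed over both libraries (vertical, log scale), by distance from the nearest member (horizontal, kb). Points are medians and bars run from the lower to the upper quartile over neighbours, and the medians decline over the first 5 to 10 kb, with 182 reads within 1 kb and 43 at 5 to 10 kb.

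Where members lay near each other they formed short rows. Joining members whose starts lay at most 30 kb apart left 291 members alone and put 150 into 55 rows, of which 40 were pairs and 9 held 4 or more members. In 27 of the 40 pairs both log2 ratios lay on the same side of 0, and the median absolute difference within a pair was 0.23. Of all 441 members 178 lay above 0, so unrelated members would often share a side as well. Agreement within pairs beyond that was not tested. The pairs had starts 528 to 29087 bp apart, with a median of 6524 bp.

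The row with the most members spanned 79.4 kb of chromosome 2 (102082725-102162154) and held 10 members with 546 to 2392 reads each. Only 1 of the 10 lay above 0, and the pooled row had 4121 sorted and 4803 unsorted reads (log2 ratio -0.19, -0.25 to -0.13). The next row spanned 89.3 kb of chromosome 1 (46979722-47068990) and held 9 members, among them the 3 named above. With 5891 sorted and 5262 unsorted reads its pooled log2 ratio was 0.19 (0.14 to 0.25). Both rows also held 11 strong peaks that the limit on starts within 10 kb assigned to dense clusters. The limit therefore split single stretches of strong peaks between both classes, and a member in such a row is no lone peak.

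Within their spans, other rows held members alone or nearly so. On chromosome 5 (36001953-36032170) 6 members held 738 sorted and 904 unsorted reads (log2 ratio -0.26, -0.41 to -0.12), and 1 of the 6 lay above 0. On chromosome 8 (97932089-97990348) 6 members held 1038 sorted and 1028 unsorted reads (0.044, -0.082 to 0.17). On chromosome 2 (160487340-160493544) 5 members stood within 6.21 kb, with 682 sorted and 692 unsorted reads (0.0092, -0.15 to 0.16). On chromosome 4 (36891952-36902502) 4 members held 589 sorted and 492 unsorted reads (0.29, 0.11 to 0.47), all of them above 0. Outside their spans, strong peaks in dense clusters started within 30 kb of the rows on chromosomes 4 and 8. The rows named here thus lay on either side of an equal share.

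As a whole the members took a smaller share of the sorted than of the unsorted library, and the 2 most covered peaks supplied much of that difference. The pooled log2 ratio was -0.21 (95% interval -0.23 to -0.20), which is 1.16-fold lower. Without the 2 most covered members, which held 22037 sorted and 33602 unsorted reads, it was -0.10 (-0.12 to -0.088). The median over members was -0.090, with quartiles of -0.37 and 0.16, and 178 of 441 members (40.4%) lay above 0. Over all 124349 peaks the median was 0.030 and 55.8% lay above 0. Equal raw counts give 0.030 and so count as above 0, and these peaks had a median of only 30 reads. The 262 strong dense peaks, with a median of 299.5 reads, had a median log2 ratio of 0.037, and 55.7% lay above 0. The lower level of the members depended on the scaling and on the correction for coverage. With the 5000 most covered peaks as the library total the pooled value was -0.056. With the loess correction, whose construction takes out the coverage trend, the pooled value was 0.025 and the median 0.028.

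Single members differed more than counting error gives. Their log2 ratios had a standard deviation of 0.39, while the reads behind them give 0.17 by counting error, or 18.9% of the variance. Nevertheless 375 of the 441 (85.0%) lay within 1.5-fold of an equal share. The 262 strong dense peaks also spread beyond counting error, with a standard deviation of 0.32 against 0.17. Of these dense peaks, 238 (90.8%) lay within 1.5-fold. A member was counted as apart when it differed at least 1.5-fold and its 95% interval excluded an equal share. By that rule 20 members (4.54%) were higher and 46 (10.4%) lower in the sorted library. Among all 105380 peaks of the table with at least 20 reads, the same rule called 4.65% higher and 2.89% lower. Among the 2796 other peaks with 200 or more reads, whose intervals are of similar width, it called 1.82% higher and 7.69% lower. At 2-fold, 3 members (0.68%) were higher and 2 (0.454%) lower, against 3.53% and 1.65% of all peaks with at least 20 reads and 0.25% and 0.179% of the other strong peaks. The 2-fold shares of members and other strong peaks rest on few peaks each.

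The balance of these counts followed the scaling, since a scaling moves every log2 ratio by the same amount. With the 5000 most covered peaks as the library total, which adds 0.16 to every log2 ratio, 42 members (9.52%) were higher and 14 (3.17%) lower, against 4.29% and 2.65% of the other strong peaks. With the TMM factors of edgeR, which take 0.067 off (shift -0.067), 15 members (3.40%) were higher and 62 (14.1%) lower, against 1.39% and 11.8% of the other strong peaks. After the loess correction 30 members (6.80%) were higher and 18 (4.08%) lower, against 3.76% and 3.08%.

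Ranked by the interval bound nearest to 0, which favours well covered peaks, the 8 highest members had log2 ratios from 0.66 to 1.10. Of these, 5 lay under 10 Mb from the outermost peak of their chromosome, as did 157 of all 441 members. None of these 8 had another strong peak within 30 kb, and neither did 6 of the 8 lowest members given below or 273 of all 441 members (61.9%). Members with wider intervals also lay above 0.66, among them a peak on chromosome 4 at 36902103 with a log2 ratio of 0.82 (0.44 to 1.21) and 10 strong neighbours, named after its value was seen. The first of the 8, on chromosome 8 at 109679732-109680131, held 371 sorted and 180 unsorted reads (1.07, 0.81 to 1.34), while its 3 neighbours together held 72 sorted and 57 unsorted reads. A second on chromosome 8, at 8097421-8097820, held 171 sorted and 81 unsorted reads (1.10, 0.72 to 1.51). Here the 3 neighbours held 90 sorted and 44 unsorted reads and so showed nearly the same log2 ratio, 1.05. On chromosome 2 the peak at 134218177-134218576 held 148 sorted and 70 unsorted reads (1.10, 0.69 to 1.54). Its 6 neighbours were at 0.46.

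The others of the 8 were less far apart. The peak on chromosome 7 at 111355053-111355452 held 140 sorted and 76 unsorted reads (log2 ratio 0.91, 0.50 to 1.33). That on chromosome 4 at 121286506-121286905 held 135 sorted and 74 unsorted reads (0.89, 0.48 to 1.33). The peak on chromosome 3 at 129235058-129235457 held 167 sorted and 95 unsorted reads (0.84, 0.47 to 1.22). These 3 had neighbours between -0.21 and 0.11 in pooled log2 ratio, so the members stood above their surroundings. Better covered were the peaks on chromosome 1 at 185281546-185281945, with 538 sorted and 346 unsorted reads (0.67, 0.47 to 0.87), and on chromosome 2 at 90818913-90819312, with 553 sorted and 358 unsorted reads (0.66, 0.46 to 0.85). The 7 neighbours of the peak on chromosome 1 lay on the other side, with 90 sorted and 160 unsorted reads (-0.80).

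Of the 8 lowest members by the same ranking, 6 lay under 10 Mb from the outermost peak, again beside 157 of all 441 members. The lowest, on chromosome 7 at 111004659-111005058, held 93 sorted and 253 unsorted reads (log2 ratio -1.41, -1.77 to -1.07). The high member at 111355053 of the same chromosome lay further along. The 9 neighbours of the lowest member held 207 sorted and 200 unsorted reads and so stood near an equal share (0.080). The peak on chromosome 6 at 15098109-15098508 held 200 sorted and 411 unsorted reads (-1.01, -1.26 to -0.76), with neighbours at 0.47. On chromosome 8, the peak at 7081078-7081477 held 159 sorted and 305 unsorted reads (-0.91, -1.20 to -0.63). The peak at 5415784-5416183 held 752 sorted and 1222 unsorted reads (-0.67, -0.80 to -0.54), and that at 6073134-6073533 held 91 sorted and 174 unsorted (-0.90, -1.29 to -0.53).

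The peaks on chromosome 1 at 9953699-9954098 and on chromosome 4 at 6666032-6666431 both had a log2 ratio of -0.96, with 86 sorted and 171 unsorted reads in the first and 85 sorted and 169 unsorted reads in the second. The eighth was the most covered member, on chromosome 6. Pooled neighbours of these 8 members had log2 ratios between -0.47 and 0.47, and in 4 of the 8 they lay below 0. The 16 peaks at both extremes were chosen by the interval bounds of their ratios, so their distance from 0 is a description.

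The ratio of the members moved with their distance from the chromosome end, though not alike at both ends of a chromosome. The classes of distance were set after the values had been seen. Of the 103 members 5 to 7.5 Mb from the outermost peak, 19 lay above 0, and together they held 19364 sorted and 25341 unsorted reads (log2 ratio -0.36, -0.38 to -0.33). Chromosomes 4 and 8 held 53 of these 103, at -0.48 (-0.52 to -0.45), and the 50 on the other chromosomes were at -0.22 (-0.26 to -0.18). The 54 members at 7.5 to 10 Mb were at -0.093 (-0.13 to -0.054). At 10 to 20 Mb the 91 members were at -0.27, and at -0.021 (-0.054 to 0.013) without the second most covered member of all. The 88 members at 20 to 40 Mb were at 0.012 (-0.019 to 0.043). The 105 members at 40 to 100 Mb were at -0.22, and at 0.00077 (-0.025 to 0.026) without the most covered member. Medians per member, with every member kept, were -0.39, -0.12, 0.0023, 0.061 and -0.050 in the same order of distance.

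The pattern was also present at matched coverage. Among members with 200 to under 400 reads, the 73 nearest to the ends had a pooled log2 ratio of -0.30 (-0.34 to -0.26), and the 3 classes from 10 Mb inwards had 0.039, 0.023 and -0.015. After the loess correction the mean over members was -0.19 in the class at 5 to 7.5 Mb and between 0.11 and 0.15 in the classes from 10 Mb inwards. In the outer class this mean was -0.32 on chromosomes 4 and 8 and -0.055 on the other chromosomes. By the 1.5-fold rule, 3 members of the outer class (2.91%) were higher and 23 (22.3%) lower in the sorted library. Chromosomes 4 and 8 supplied most of the lower ones. Of their 53 outer members 1 was higher and 17 were lower, and of the 50 on the other chromosomes 2 were higher and 6 lower. Of the 3358 weaker peaks with at least 20 reads at that distance, 4.71% were higher and 2.50% lower, with fewer reads and so wider intervals. At 7.5 to 10 Mb, 5 of 54 members (9.26%) were higher and 7 (12.96%) lower. At 10 to 20 Mb, 7 of 91 (7.69%) were higher and 6 (6.59%) lower, and at 20 to 40 Mb, 3 of 88 (3.41%) and 5 (5.68%). Of the 105 members at 40 to 100 Mb, 2 (1.90%) were higher and 5 (4.76%) lower. Of the weaker peaks with at least 20 reads, 4.35%, 5.32%, 5.55% and 5.31% were higher in these 4 classes from 7.5 Mb inwards. The lower ones made up 2.36%, 2.13%, 1.88% and 1.77%. Of the strong dense peaks, 7 of 11, 1 of 13, 1 of 112 and 3 of 120 were higher in the same order. The lower ones were 1, 1, 5 and 4. Log2 ratios of the 157 members under 10 Mb had a standard deviation of 0.42, against 0.34 for the 284 further in. Within 1.5-fold of an equal share lay 75.8% of the former and 90.1% of the latter.

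Weaker peaks at 5 to 7.5 Mb did not share the lower level of the members there. The 3708 peaks at 5 to 7.5 Mb with fewer than 200 reads and the same spacing held 82039 sorted and 80289 unsorted reads (log2 ratio 0.061, 0.047 to 0.075), against 0.14 (0.13 to 0.14) at 40 to 100 Mb. Within 30 kb of the 103 outer members, the 595 peaks that were no members were at 0.033 (0.00078 to 0.065). The outer members therefore differed in ratio from peaks that lie between them. Strong peaks in dense clusters were few there. The 6 at 5 to 7.5 Mb were at -0.38 (-0.50 to -0.27), near the members of that class, and the 11 at 7.5 to 10 Mb at 0.40 (0.31 to 0.50). Most of these 11 came from a single stretch of chromosome 3, with log2 ratios from 0.44 to 1.02.

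**Figure D4:**
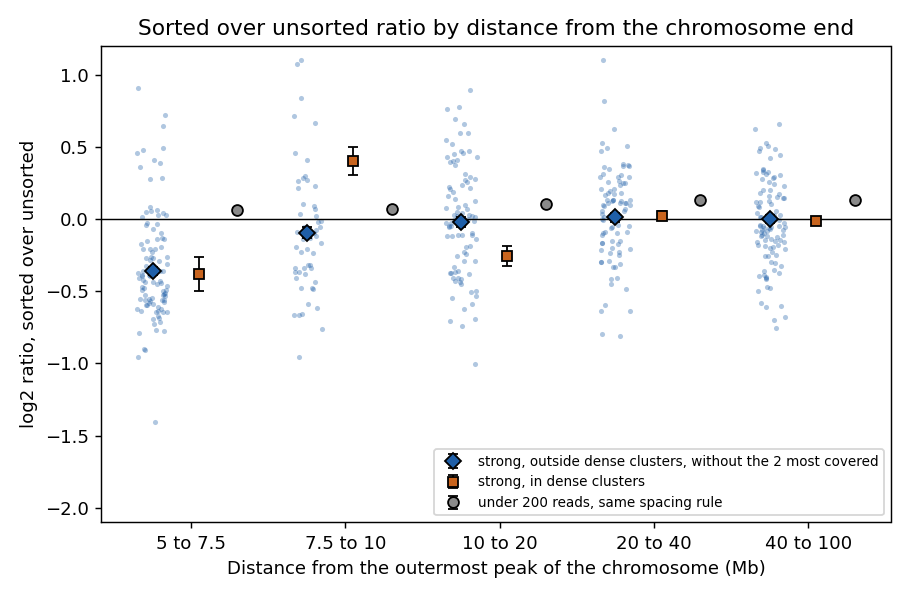
The log2 ratio of sorted over unsorted reads (vertical) by distance from the outermost peak of the chromosome (horizontal, Mb). Small points are single members, and the 2 most covered members are among them. Large symbols are pooled values with 95% intervals from counting error, for members without the 2 most covered, for strong peaks in dense clusters and for weaker peaks with the same spacing. The members at 5 to 7.5 Mb lie at -0.36 and those from 20 Mb inwards near 0.

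The same comparison within chromosomes, under against at or over 10 Mb and without the 2 most covered members, gave lower pooled values near the ends on all 8, by differing amounts. On chromosome 8 the 32 outer members were at -0.42 (-0.47 to -0.38) and the 30 inner ones at 0.0085 (-0.042 to 0.059). On chromosome 4 the 31 outer members were at -0.34 (-0.39 to -0.29) and the 38 inner ones at 0.033 (-0.013 to 0.079). On chromosome 1 the values were -0.27 for 18 outer and 0.078 for 47 inner members, and on chromosome 6 they were -0.31 for 20 outer and -0.043 for 35 inner members. On chromosomes 2, 3, 5 and 7 the intervals of both parts overlapped, with -0.080 and -0.052 on chromosome 2, -0.054 and 0.079 on chromosome 3, -0.21 and -0.11 on chromosome 5, and -0.083 and -0.017 on chromosome 7, the outer part given first. By the median per member the outer members were higher than the inner ones on chromosome 2 (0.085 and -0.099) and on chromosome 7 (-0.011 and -0.17). Over all 8 chromosomes the 157 outer members were at -0.27 (-0.29 to -0.25), and the 282 inner members at -0.0015 (-0.018 to 0.015). Without chromosomes 4 and 8 the values were -0.19 (-0.21 to -0.16) for 94 outer and -0.0094 (-0.029 to 0.010) for 214 inner members.

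Pooled values near the first end lay below 0, intervals included, on every chromosome with members there. Near the last end this held only on chromosomes 1 and 6, and several last ends held few members. Chromosome 1 was low near both, with 11 members at -0.35 (-0.45 to -0.25) near the first and 7 at -0.19 (-0.28 to -0.088) near the last. Chromosome 6 was also low near both, with 4 members at -0.51 (-0.66 to -0.36) and 16 at -0.26 (-0.33 to -0.18). Near the first end of chromosome 4 none of 27 members lay above 0 (pooled -0.40, -0.45 to -0.34), while near its last end 3 of 4 did (0.057, -0.081 to 0.20). Near the first end of chromosome 8, 3 of 27 lay above 0 (-0.50, -0.55 to -0.45), and near its last end 1 of 5 (-0.050, -0.16 to 0.063). On chromosome 3 the first end had 6 members at -0.23 (-0.34 to -0.12) and the last end 6 at 0.075 (-0.017 to 0.17). On chromosome 2 the 9 members near the first end were at -0.16 (-0.27 to -0.046) and the 6 near the last at 0.046 (-0.096 to 0.19). On chromosome 5 the first end had 20 members at -0.22 (-0.28 to -0.15) and the last only 2. The richest single megabase, from 6 to 7 Mb of chromosome 4, held 13 members with 1847 sorted and 2838 unsorted reads (-0.59, -0.67 to -0.50). None of these 13 lay above 0, and their log2 ratios ran from -0.96 to -0.27. The megabases from 5 to 8 Mb of chromosome 8 held 7, 10 and 7 members, at -0.58, -0.49 and -0.53. In contrast all 7 members from 36 to 37 Mb of chromosome 4 lay above 0, with 1375 sorted and 1197 unsorted reads (0.23, 0.12 to 0.34). These 7 were not spread over the megabase but formed neighbouring rows of 4 (36891952-36902502) and 3 members (36934703-36944259).

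Members, like strong interior peaks of any spacing, were also more frequent among the peaks near the ends. They made up 2.4% of the 4288 interior peaks at 5 to 7.5 Mb, 1.41% of those at 7.5 to 10 Mb, 0.728% at 10 to 20 Mb, 0.445% at 20 to 40 Mb and 0.344% at 40 to 100 Mb. Strong interior peaks of any spacing, members included, made up 2.54% at 5 to 7.5 Mb and 0.74% at 40 to 100 Mb. Weaker peaks with the same spacing limits also held more reads near the ends. Their median was 35 reads at 5 to 7.5 Mb and 24 at 40 to 100 Mb. The part of this general coverage in the shares of members was not tested. Strong dense peaks showed another distribution, with 6 of the 262 at 5 to 7.5 Mb, 112 at 20 to 40 Mb and 120 at 40 to 100 Mb. Chromosome 4 had the largest share of members among its interior peaks, 0.849% of 8127, and chromosome 7 the smallest, 0.293% of 6133. On chromosome 7 the first 12 Mb were left out by the rule, so its first end contributed no outer members.

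Set against the strong dense peaks, the members had a lower pooled log2 ratio by 0.20 (difference -0.20, 95% interval -0.23 to -0.18 from counting error). The 262 dense peaks held 47498 sorted and 48836 unsorted reads (-0.0099, -0.028 to 0.0084). Without the 2 most covered members the difference was -0.092 (-0.11 to -0.069), and with 200 to under 400 reads on both sides it was -0.11 (-0.15 to -0.082). When peaks under 10 Mb from the ends were also left out, the difference without the 2 most covered members was 0.014 (-0.011 to 0.040). No difference was thus detectable in the pool from 10 Mb inwards. In the class at 10 to 20 Mb the 90 members were at -0.021 (-0.054 to 0.013) and the 13 dense peaks at -0.26 (-0.33 to -0.18). The members are here without their most covered peak, but the dense peaks are not. A single dense peak at -0.61 held 959 of their 2821 sorted and 1497 of their 3439 unsorted reads. With under 400 reads on both sides the 70 members were at 0.039 (-0.0034 to 0.082) and the 10 dense peaks at -0.049 (-0.16 to 0.060). The difference to weaker interior peaks was -0.33 (-0.35 to -0.32), with 1075663 sorted and 1010978 unsorted reads in 65416 weaker peaks (0.12). It was -0.13 (-0.15 to -0.11) from 10 Mb inwards without the 2 most covered members, and 0.0019 between the loess-corrected means. The single strong peak with no other start within 30 kb held 2153 sorted and 2133 unsorted reads (0.044, -0.043 to 0.13), so no class of such peaks could be compared.

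By the number of other starts within 10 kb, the pooled ratio fell from 0 to 3 starts and was higher again at 4, without the 2 most covered members. The 80 with no other start within 10 kb were then at -0.047 (-0.079 to -0.016). Those with 1, 2, 3 and 4 other starts were at -0.093, -0.12, -0.16 and -0.080, and from 0 to 3 starts the intervals of adjacent classes overlapped. With the 2 kept, the members without a start within 10 kb were at -0.38. Medians per member, with the 2 kept, showed no steady fall, at -0.10, -0.052, -0.12, -0.16 and -0.043 from 0 to 4 starts. By strong neighbours the values differed more. The 271 members without any, again leaving out the 2 most covered, were at -0.13 (-0.15 to -0.11), the 84 with 1 at -0.18 (-0.21 to -0.15), the 45 with 2 to 4 at -0.031 (-0.072 to 0.011) and the 39 with 5 or more at 0.041 (0.0072 to 0.075). The first 2 of these classes lay nearer to the chromosome ends, at a median of 13.4 and 9.98 Mb, than the others, at 37.1 and 47.0 Mb. The part of that distance in these values was not tested. The class with 5 or more held 13986 sorted and 13880 unsorted reads, with a median of -0.0048 and 19 of 39 members above 0. It took in the whole rows of 9 members on chromosome 1 and of 10 on chromosome 2, at 0.19 and -0.19. The row on chromosome 1 alone held 5891 of its sorted and 5262 of its unsorted reads. The pooled value of this class thus rests largely on few stretches.

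Neighbours of the members stood near an equal share. The 2257 other peaks within 30 kb held 113514 sorted and 117515 unsorted reads (log2 ratio -0.020, -0.032 to -0.0080), and the 2107 of them that were no members were at 0.0061 (-0.0083 to 0.020). By distance, neighbours with under 200 reads had pooled log2 ratios between -0.015 and 0.063, without a steady course from 1 to 30 kb.

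The log2 ratios of members and of their neighbours were only weakly correlated. Among the 384 members whose neighbours held at least 100 reads together, Pearson's r between the log2 ratio of the member and that of its pooled neighbours was 0.26 and Spearman's rho 0.28. These are correlations across peaks of the same 2 libraries, which are no replicates, and neighbours that are members enter more than 1 point. For members and their single nearest neighbour over all 441, Pearson's r was 0.028, with a median of 58 reads in those neighbours. Counting error in such neighbours lowers a correlation, so the part of the variation that is shared cannot be read from these values. Of the 149 members under 10 Mb from an end, 116 (77.9%) lay below their pooled neighbours, by a median difference of -0.30. Of the 235 further in, 118 (50.2%) did, with a median difference of -0.0012.

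**Figure D5:**
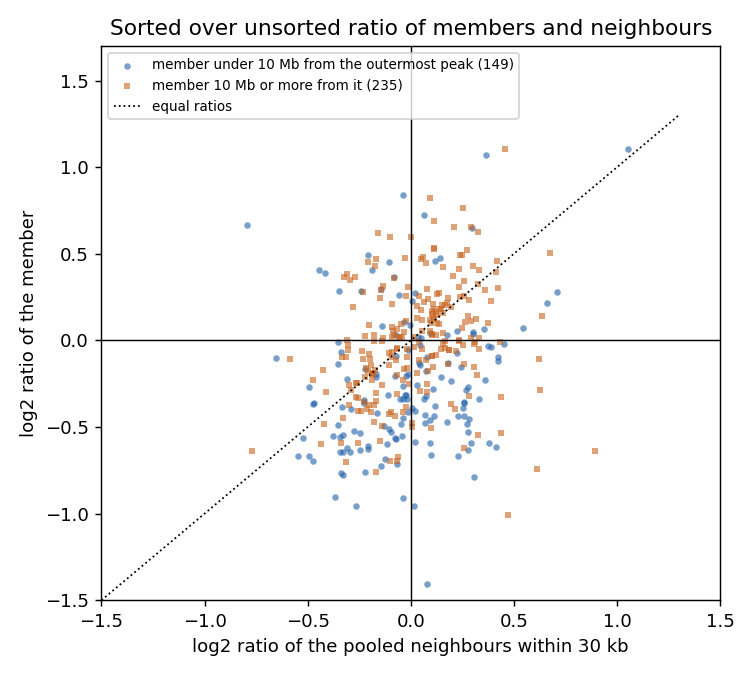
The log2 ratio of sorted over unsorted reads of a member (vertical) against that of all other peaks within 30 kb pooled (horizontal), for the 384 members whose neighbours held at least 100 reads. Circles are the 149 members under 10 Mb from the outermost peak and squares the 235 further in, and the dotted line marks equal ratios. Most circles, 116 of 149, lie below the dotted line, while the squares lie on both sides of it.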

How the data were processed

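Per the submitters' processing notes, featureCounts, MACS2, Trim Galore, SAMtools, Bowtie and Bowtie2 took part in the processing. Their versions, roles and order were not stated. The deposited table held raw read counts per peak over 1 merged peak set, in 1 column per library. The labels do not say which library each peak was called from or how duplicate and multiply mapped reads were treated, either of which can change a count. The 548 peaks without a position took 0.0899% of the sorted and 0.0924% of the unsorted reads and stayed in the totals.

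Libraries were scaled by their total reads in peaks. A log2 ratio is sorted over unsorted, with a prior count of 0.5 for single peaks. Intervals are 95% Clopper-Pearson intervals, and for differences they use the normal approximation to the log ratio. With 1 library per group, no test was run. Spacing used all peaks of the chromosome. The call rule and spacing rule were checked on simulated counts.

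The named members were the 10 with the most reads, the 8 highest and 8 lowest by the interval bound nearest to 0, the 3 with the largest and the 3 with the smallest distance to another start, and the 2 with the most other starts within 30 kb. Rows and megabases of members were chosen after their values were seen. The members and lists were chosen with earlier results of these data known. Alternatives were TMM factors, DESeq2 size factors, the 5000 most covered peaks as totals, a loess correction (span 0.3), read minimums of 150 and 300, a 99% interval, a prior count of 5 and other neighbour windows. Software was Python 3.11.15, NumPy 2.4.6, pandas 2.3.3, SciPy 1.17.1, statsmodels 0.14.6, R 4.3.3, edgeR 4.0.16 and DESeq2 1.42.0.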

Additional observations from a re-analysis of the deposited data

How the results depend on the processing

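The pooled log2 ratio of the members, -0.21 by library totals, was -0.28 when TMM set the scale, -0.24 under the size factors of DESeq2 and -0.056 when the 5000 most covered peaks gave the totals. These scalings move every log2 ratio by -0.067, -0.030 and 0.16 in the same order. It was 0.025 after the loess correction weighted by reads, and the median per member was -0.090 before and 0.028 after it, since the correction removes the trend with coverage. With minimums of 150 and 300 reads it was -0.17 and -0.27, without the 2 or the 10 most covered members -0.10 and -0.12, and at 10 Mb or more from the ends -0.19, or -0.0015 without the 2 as well. The 20 higher members became 42 with the 5000 most covered peaks and 3 at 2-fold. The 46 lower ones became 14 with the 5000 most covered peaks, 18 after the loess correction and 2 at 2-fold. The total of 66 became 5 at 2-fold. A minimum of 150 reads makes the set of members larger, and a minimum of 300 makes it smaller. With a minimum of 150 reads, 38 members were higher and 59 lower, 97 in total. With a minimum of 300, 8 were higher and 25 lower, 33 in total. Counts from sets of different size cannot be read as a change in the share of members past 1.5-fold.

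The median nearest distance of 4352 bp became 84799 bp when only peaks with 200 or more reads counted as neighbours. The share of members that were most covered was 83.2% in a 10 kb window. The difference to weaker peaks, -0.33, was 0.0019 between loess-corrected means, -0.22 between medians, -0.22 without the 2 most covered members and -0.13 from 10 Mb inwards without them. The difference to strong dense peaks, -0.20, was -0.11 between loess-corrected means, -0.13 between medians, -0.11 with under 400 reads and -0.092 without the 2 most covered members. From 10 Mb inwards it was 0.014 without those 2 and -0.013 with under 400 reads, and the cause was not tested. The difference to the single isolated peak, -0.26, was -0.13 between medians and -0.15 without the 2, and with under 400 reads it could not be given, because that peak holds 4286 reads. Neighbours, at -0.020, were at -0.034 within 10 kb, -0.038 with at least 50 reads and 0.0061 when members were left out. Of 165 values of the 33 named members under alternatives, 138 stayed within the counting interval of the value by library totals. The sign changed in 10 values of 6 members. In 5 of these members the interval held 0. The other was the peak on chromosome 8 at 23529077, at 0.13 after the loess correction. Leaving out members or chromosomes, summing by medians, counting strong or non-member neighbours and the distance classes were alternatives chosen after seeing the data.

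No paired analysis was possible because there was only 1 library in either group. For the same reason leaving out a replicate was not possible, and animal, dissociation, sorting and library preparation cannot be told apart.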

Other observations

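The members were spread thinly over the chromosomes. From 1 member to the next on the same chromosome the median distance was 379876 bp, with a lower quartile of 42013 bp.

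By coverage, the members stood nearest to an equal share in the least covered class. The 162 members with 200 to under 250 reads held 17490 sorted and 18036 unsorted reads (log2 ratio -0.014, -0.044 to 0.016), and the 83 with 300 to under 400 reads held 13304 sorted and 15347 unsorted reads (-0.18, -0.21 to -0.14). The 58 strong dense peaks of 300 to under 400 reads were at 0.0021 (-0.039 to 0.043). Above them, the 19 members with 1000 to under 5000 reads were at -0.11 (-0.14 to -0.081).

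Some pairs, chosen after their values were seen, stood together far from an equal share. On chromosome 1, a pair spanning 185184390-185185332 held 472 sorted and 765 unsorted reads, and both of its members had a log2 ratio of -0.67. On chromosome 7, a pair spanning 97900696-97903543 held 413 sorted and 286 unsorted reads (0.56, 0.34 to 0.78), with its members at 0.40 and 0.76. A second pair on chromosome 7, spanning 110724824-110754310, held 362 sorted and 250 unsorted reads (0.56, 0.33 to 0.80) and lay in the last 10 Mb, where the lowest member of all also lay.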
